A study of Mus musculus with 4 samples.

Results

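Msr1, Marco, Cd36, Olr1, Scarb1, Cd68, Cd163, Stab1, Mertk and Axl encode scavenger and efferocytosis receptors, and each was found by its symbol as 1 row of the deposited table, 10 of 17691 genes. Their RNA was measured in lungs from wild type C57BL/6 mice, 6 to 8 weeks old, given bleomycin or PBS intranasally, and the labels give a treatment time of 10 days. Bleomycin breaks DNA and is a common means to injure the lung and make it scar, while PBS is plain buffer. The files hold 2 bleomycin and 2 PBS libraries, while the treatment text speaks of 4 groups and the design text of triplicates. Values are FPKM, fragments scaled to transcript length and to the library's own total. The labels do not say that libraries came from separate mice or that mice were not pooled, so p-values measure only the spread between these libraries, which may be technical.

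Scavenger receptors bind a wide range of ligands, among them oxidized lipoproteins, bacteria, dust particles and the remains of dead cells, and bring them into the cell. Efferocytosis is the engulfment of dying cells, which carry phosphatidylserine on their surface. The kinases Mertk and Axl recognise it through the bridging proteins Gas6 and protein S. In the lung many of these receptors, though not all, are known above all from macrophages, which clear the airspaces. Cd36 is also abundant in capillary endothelium, and Axl is found in fibroblasts and endothelium. The RNA came from whole tissue, so a change in the number of cells that carry a receptor and a change in RNA per cell cannot be told apart.

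Each library was estimated, from the spacing of its low values, to hold 17000000 to 17800000 fragments. The 7 markers of alveolar type II cells, the surfactant makers of the lung, summed to 13455 and 10410.1 FPKM with bleomycin and 12584 and 15316 FPKM with PBS, none at 0. Y-linked Eif2s3y, chosen after its values were seen, was listed at 0 in both bleomycin libraries and stood at 26.4 and 28.9 FPKM with PBS, so treatment and sex cannot be told apart. The 8 hepatocyte markers summed to 11.4 and 7.98 FPKM with bleomycin and 100.3 and 94.4 FPKM with PBS, and their part in the results was not tested. Over 12986 tested genes, the median absolute difference within a pair on the log2(FPKM + 1) scale was 0.16 for bleomycin and 0.09 for PBS.

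Stretches of 250 bases before a transcript start, from RefSeq on GRCm38.p6, are shown for 4 members with contrasting levels. Cd68 rose, Marco and Cd163 were high together in 1 bleomycin library, and Mertk was lower with bleomycin. No link between these letters and the levels was tested. Such a stretch was found for 8 of the 10 members, those other than Msr1 and Scarb1. For Marco, Cd68 and Mertk the transcript start is the edge of the gene locus. For the other 5 the start lies inside the locus, which other transcripts extend: by 10 bases for Stab1, 15 for Cd163, 185 for Olr1, 191 for Axl and 53063 for Cd36. Capitals mark matches, on either strand, to 5 motifs: GAGGAA, the core bound by the myeloid factor PU.1; TGANTCA, bound by AP-1; TGACNNNGC, the core of antioxidant response elements; GGGCGG, the GC box; and TATAAA. The AP-1 and antioxidant motifs share their opening letters and can overlap.
Cd68, chr11:69666171-69666420, minus strand: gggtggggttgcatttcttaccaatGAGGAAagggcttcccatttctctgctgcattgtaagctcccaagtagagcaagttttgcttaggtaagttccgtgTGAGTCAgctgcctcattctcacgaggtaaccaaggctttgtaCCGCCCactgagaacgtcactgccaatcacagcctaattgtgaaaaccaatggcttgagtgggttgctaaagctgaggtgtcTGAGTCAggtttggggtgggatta
Marco, chr1:120505025-120505274, minus strand: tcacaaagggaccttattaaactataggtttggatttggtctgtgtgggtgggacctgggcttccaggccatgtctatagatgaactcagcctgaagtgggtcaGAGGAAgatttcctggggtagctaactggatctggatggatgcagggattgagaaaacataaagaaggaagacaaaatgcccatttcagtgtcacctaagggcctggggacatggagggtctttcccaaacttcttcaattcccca
Cd163, chr6:124304401-124304650, plus strand: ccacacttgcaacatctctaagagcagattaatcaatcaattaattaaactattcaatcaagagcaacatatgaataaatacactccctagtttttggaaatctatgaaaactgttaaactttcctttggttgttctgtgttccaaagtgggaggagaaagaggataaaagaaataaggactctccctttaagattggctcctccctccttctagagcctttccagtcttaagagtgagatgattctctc
Mertk, chr2:128698665-128698914, plus strand: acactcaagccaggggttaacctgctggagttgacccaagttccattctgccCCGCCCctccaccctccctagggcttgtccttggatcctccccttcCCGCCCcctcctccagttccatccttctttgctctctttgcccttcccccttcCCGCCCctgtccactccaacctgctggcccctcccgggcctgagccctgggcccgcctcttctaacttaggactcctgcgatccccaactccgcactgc

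The PU.1 core stood in 5 of the 8 stretches, those of Marco, Olr1, Cd68, Stab1 and Axl, against 23.3% of 32851 stretches of the same length in the RefSeq table. The AP-1 motif stood in 2 of 8, those of Cd68 and Olr1, against 6.75% of all. Cd68 had its AP-1 matches 149 and 24 bases before the start and its PU.1 core 225 bases before it. The GC box stood in 4 of 8, against 32.7% of all, and Mertk held 3 copies. The antioxidant and TATA motifs stood in 0 of 8, against 10.2% and 12.4% of all, and the Cd163 stretch held none of the 5. For Olr1, Axl and Cd36 most or all of the stretch searched lies within the gene locus. A match is a run of letters, not a measured binding site.

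Of the 10 receptors, Msr1, Cd68 and Scarb1 rose after bleomycin and none fell. The other 7 did not pass, although Axl and Olr1 were higher and Cd36 and Mertk lower in both bleomycin libraries. Marco was higher in both as well, but mostly through 1 of them. Cd163 and Stab1 overlapped between the groups. The test was limma on log2(FPKM + 1) over all genes averaging 1 FPKM or more, two-sided, at a Benjamini-Hochberg adjusted p under 0.05. It called 8.59% of all tested genes higher and 7.69% lower, or 16.3% in all, beside 3 higher and 0 lower among the 10. The groups did not overlap for 8 of the 10, 6 of them higher with bleomycin, against 66.5% of all tested genes. The median log2 change was 0.62 over the members and -0.024 over all tested genes. All 10 passed the filter, Msr1 through its bleomycin values alone, so the counts and the median describe these genes and support nothing further.

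**Figure D1:**
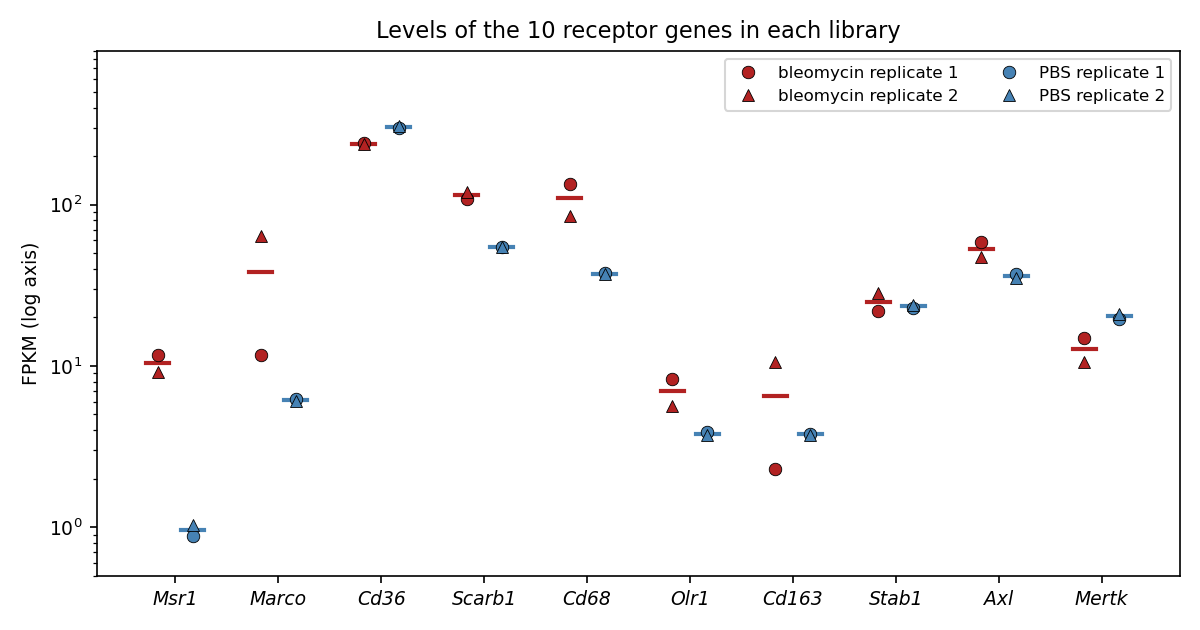
FPKM on a log axis of each receptor gene, with circles for replicate 1 and triangles for replicate 2, and bars for the mean of the 2 libraries of a group. Msr1 stands at 11.6 and 9.21 FPKM with bleomycin, above 0.88 and 1.03 FPKM with PBS, while the bleomycin libraries of Marco and Cd163 lie far apart.

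Msr1 is the macrophage class A scavenger receptor that takes up acetylated and oxidized lipoproteins (gene 20288, GRCm38.p6 chromosome 8, 39543232 to 39642750). It stood at 11.6 and 9.21 FPKM with bleomycin and 0.88 and 1.03 FPKM with PBS. Both bleomycin libraries lay above both PBS libraries, and each pair was close. The rise was 10.9-fold between means of 10.4 ± 1.7 and 0.955 ± 0.106 FPKM (± SD; n = 2 libraries for every mean given here). The log2 change was 2.54 ± 0.15 (SE, adjusted p = 0.00516 by limma), and it understates the rise because a pseudocount of 1 is large beside the PBS level. With a pseudocount of 0.1 it was 3.31. Depending on which of its transcripts, 1424 to 3636 bases long, is counted, the PBS values stand for about 21 to 64 fragments per library. Of all tested genes, 0.416% had a larger absolute change.

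Marco, the other class A member followed, binds bacteria and inhaled particles and is known from alveolar macrophages (gene 17167, chromosome 1, 120474538 to 120505024). It stood at 11.7 and 64.2 FPKM with bleomycin and 6.24 and 6.04 FPKM with PBS. Both bleomycin libraries were above the PBS libraries, but replicate 2 held 5.49 times the level of replicate 1. The log2 change of 2.01 ± 0.77 did not pass (adjusted p = 0.142 by limma). Without bleomycin replicate 2 it was 0.83 and without bleomycin replicate 1 it was 3.19. The PBS libraries differed by at most 0.11 on the log2(FPKM + 1) scale for any member.

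Cd36 and Scarb1 are the class B receptors, which handle fatty acids and lipoproteins. Scarb1, the receptor for high-density lipoprotein (gene 20778, chromosome 5, 125277087 to 125341094), stood at 109 and 119 FPKM with bleomycin and 54.8 and 54.9 FPKM with PBS. The groups did not overlap, and the PBS libraries were nearly equal. Scarb1 rose 2.08-fold, with a log2 change of 1.04 ± 0.09 (adjusted p = 0.00741 by limma). Cd36, a fatty acid and thrombospondin receptor (gene 12491, chromosome 5, 17781690 to 17888959), had the highest level of the 10. It stood at 240 and 237 FPKM with bleomycin and 300 and 309 FPKM with PBS. The bleomycin libraries were close to each other and below both PBS libraries. The log2 change of -0.35 ± 0.09 did not pass (adjusted p = 0.0624 by limma), though it did with quantile normalization (adjusted p = 0.0286). Cd36 is shared between macrophages and endothelium. Of 10 capillary endothelium markers 0 rose and 5 fell in the same libraries (Kdr, Tek, Plvap, Ednrb and Car4). Over all tested genes 8.59% rose and 7.69% fell. Car4 is also on the list of alveolar macrophage markers. The 10 endothelium markers summed to 1414 and 1451 FPKM with bleomycin and 1979 and 2017 FPKM with PBS, none of them at 0. Pecam1, a junction protein of endothelium, stood at 252 and 185 FPKM with bleomycin and 321 and 315 FPKM with PBS, and did not pass. Cldn5, also on the endothelium list, stood at 217 and 286 FPKM with bleomycin and 260 and 322 FPKM with PBS. It overlapped between the groups and did not pass (adjusted p = 0.452 by limma). Plvap, of the diaphragms of capillary pores, fell to 212 and 238 FPKM with bleomycin, against 344 and 333 FPKM with PBS. The part of endothelium in the Cd36 level was not tested.

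Cd68, or macrosialin, is a heavily glycosylated lysosomal protein used as a marker of macrophages (gene 12514, chromosome 11, 69664213 to 69666170). It stood at 135 and 85.4 FPKM with bleomycin and 37.7 and 37 FPKM with PBS. Both bleomycin libraries were above both PBS libraries, with replicate 1 the higher. Cd68 rose 2.95-fold, with a log2 change of 1.50 ± 0.23 (adjusted p = 0.0202 by limma). Olr1, also called LOX-1, is a lectin-like receptor for oxidized low-density lipoprotein (gene 108078, chromosome 6, 129479150 to 129507350). It stood at 8.32 and 5.6 FPKM with bleomycin and 3.88 and 3.71 FPKM with PBS. The groups did not overlap, but the log2 change of 0.71 ± 0.19 did not pass (adjusted p = 0.0686 by limma). It passed with values rescaled to TPM (adjusted p = 0.0473) and with quantile normalization (adjusted p = 0.0422).

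Cd163 takes up complexes of haptoglobin and haemoglobin and is a marker of resident tissue macrophages (gene 93671, chromosome 6, 124304636 to 124330529). It stood at 2.28 and 10.6 FPKM with bleomycin and 3.8 and 3.74 FPKM with PBS. The bleomycin libraries thus lay on either side of the PBS libraries, 4.67-fold apart. The log2 change of 0.37 ± 0.60 did not pass (adjusted p = 0.692 by limma), and it was -0.54 without bleomycin replicate 2 and 1.29 without bleomycin replicate 1. Stab1, or stabilin-1, clears modified proteins and matrix fragments in macrophages and in some endothelium (gene 192187, chromosome 14, 31139017 to 31168651). It stood at 21.7 and 28.2 FPKM with bleomycin and 22.8 and 24 FPKM with PBS. The groups overlapped, and the log2 change was 0.08 ± 0.14 (adjusted p = 0.726 by limma), or -0.10 without bleomycin replicate 2. Stab1 overlaps Nt5dc2 in the annotation, Olr1, Scarb1 and Cd163 each overlap a predicted gene, and whether counting used strand is not given in the sources used here.

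Axl and Mertk belong to the TAM kinases, which recognise dying cells and dampen inflammation. Axl (gene 26362, chromosome 7, 25756500 to 25788924) stood at 58.7 and 47.2 FPKM with bleomycin and 36.9 and 35 FPKM with PBS. Mertk (gene 17289, chromosome 2, 128698915 to 128803162) stood at 14.9 and 10.5 FPKM with bleomycin and 19.6 and 21.1 FPKM with PBS. Neither gene overlapped between groups, and they went in opposite directions. The log2 change of Axl was 0.54 ± 0.13 (adjusted p = 0.0527 by limma) and that of Mertk was -0.66 ± 0.17 (adjusted p = 0.067 by limma), so neither passed. Axl passed with values rescaled to TPM (adjusted p = 0.0316), upper quartile scaling (adjusted p = 0.0337) and quantile normalization (adjusted p = 0.0482), and Mertk passed with the last of these (adjusted p = 0.0478). The remaining TAM kinase gene, Tyro3, stood at 3.81 and 4.32 FPKM with bleomycin and 4.77 and 3.52 FPKM with PBS. Tyro3 overlapped between the groups, with a log2 change of -0.014 ± 0.16 whose sign turned under other scalings. Of the ligand genes, Gas6 stood above all 3 kinase genes per length, at 201 and 206 FPKM with bleomycin and 181 and 185 FPKM with PBS. Pros1, the gene of protein S, stood at 61 and 63.5 FPKM with bleomycin and 52.9 and 52.4 FPKM with PBS. Neither ligand passed, with log2 changes of 0.15 ± 0.08 for Gas6 (adjusted p = 0.266 by limma) and 0.24 ± 0.08 for Pros1 (adjusted p = 0.1 by limma).

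**Figure D2:**
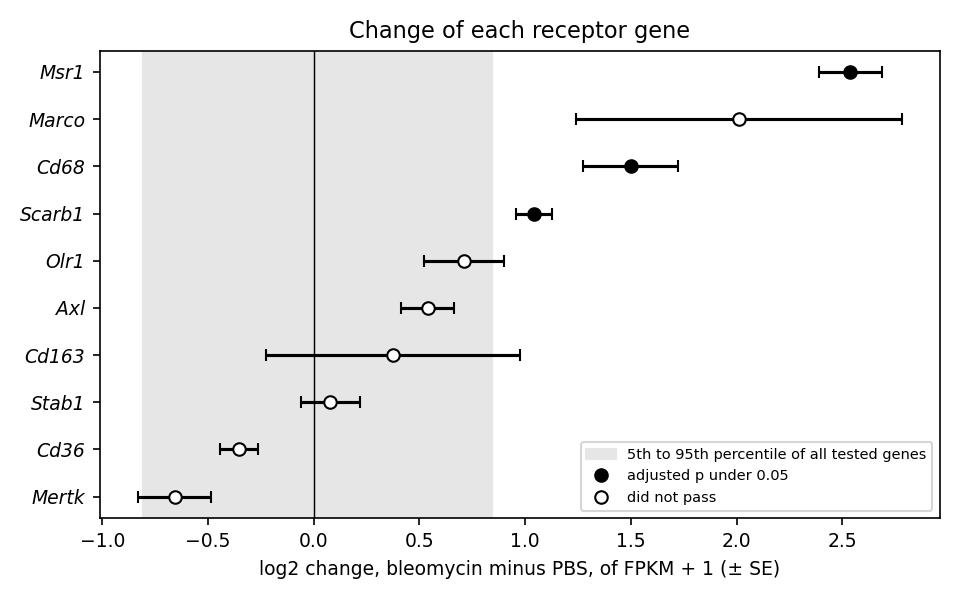
Log2 change of each receptor gene, bleomycin minus PBS, on the log2(FPKM + 1) scale with its SE. Filled points passed an adjusted p under 0.05, and the grey band spans the 5th to 95th percentile of all tested genes, -0.81 to 0.85. Msr1, Cd68 and Scarb1 are filled, and Marco and Cd163 have the widest errors.

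How the receptors stood to one another was read from ratios, since a ratio within a library does not depend on its scaling. Axl had 3.94 and 4.49 times the FPKM of Mertk with bleomycin and 1.88 and 1.66 times with PBS, a 2.38-fold higher ratio with bleomycin. Scarb1 had 0.454 and 0.504 times the FPKM of Cd36 with bleomycin and 0.183 and 0.177 times with PBS, a 2.66-fold higher ratio. Msr1 had 0.0859 and 0.108 times the FPKM of Cd68 with bleomycin and 0.0233 and 0.0279 times with PBS, a 3.77-fold higher ratio. Neither group overlapped the other in these 3 ratios. Msr1 thus differed more than Cd68 did in these libraries.

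The ratios that involve Marco or Cd163 overlapped between the groups. Msr1 had 0.992 and 0.143 times the FPKM of Marco with bleomycin and 0.141 and 0.171 times with PBS. Cd163 had 0.0169 and 0.125 times the FPKM of Cd68 with bleomycin and 0.101 times in both PBS libraries. Stab1 had 9.54 and 2.65 times the FPKM of Cd163 with bleomycin and 6 and 6.42 times with PBS. The bleomycin libraries lay on either side of the PBS libraries for Cd163 to Cd68 and Stab1 to Cd163, and for Msr1 to Marco replicate 2 lay among them. An exact two-sided permutation test gave p = 0.333 for Axl to Mertk, Scarb1 to Cd36 and Msr1 to Cd68, the smallest that 2 against 2 libraries allow. The same exact test gave p = 0.667 for Msr1 to Marco and p = 1 for the other 2 ratios, and adjustment over the 6 could bring none under 0.05.

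**Figure D3:**
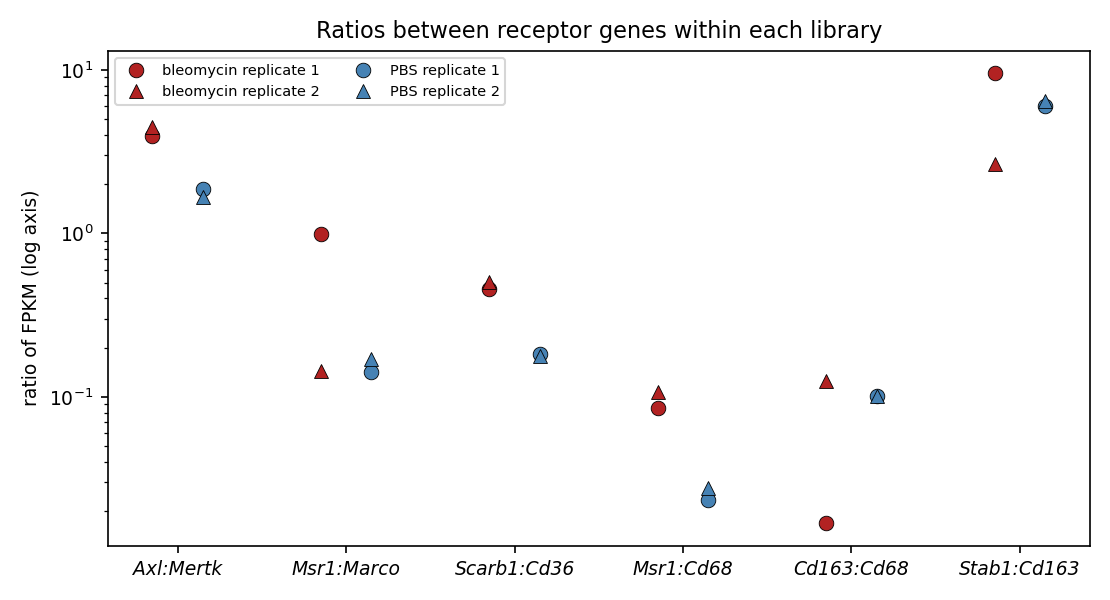
Ratio of FPKM between pairs of receptor genes within each library, on a log axis, with circles for replicate 1 and triangles for replicate 2. The groups separate for Axl to Mertk, Scarb1 to Cd36 and Msr1 to Cd68, while the bleomycin libraries spread widely for ratios with Marco or Cd163.

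The receptors also differed in which bleomycin library held more. Marco, Cd163, Stab1 and Scarb1 were higher in replicate 2 and the other 6 in replicate 1. The gaps of Marco and Cd163 were 2.36 and 1.83 on the log2(FPKM + 1) scale, and 0.108% and 0.4% of tested genes had a larger absolute gap. Cd68 had the largest gap the other way, -0.66, with 7.76% of tested genes showing a larger one. Cd36 differed by -0.019. Over the 10 members the median absolute gap was 0.41 in the bleomycin pair and 0.047 in the PBS pair, against 0.16 and 0.09 over all tested genes. Hmox1, the haem oxygenase that degrades haem taken up through Cd163, was chosen after its values were seen. It stood at 48.9 and 233 FPKM with bleomycin and 20.4 and 18.2 FPKM with PBS, so it was likewise higher in bleomycin replicate 2, and it did not pass (adjusted p = 0.0897 by limma).

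**Figure D4:**
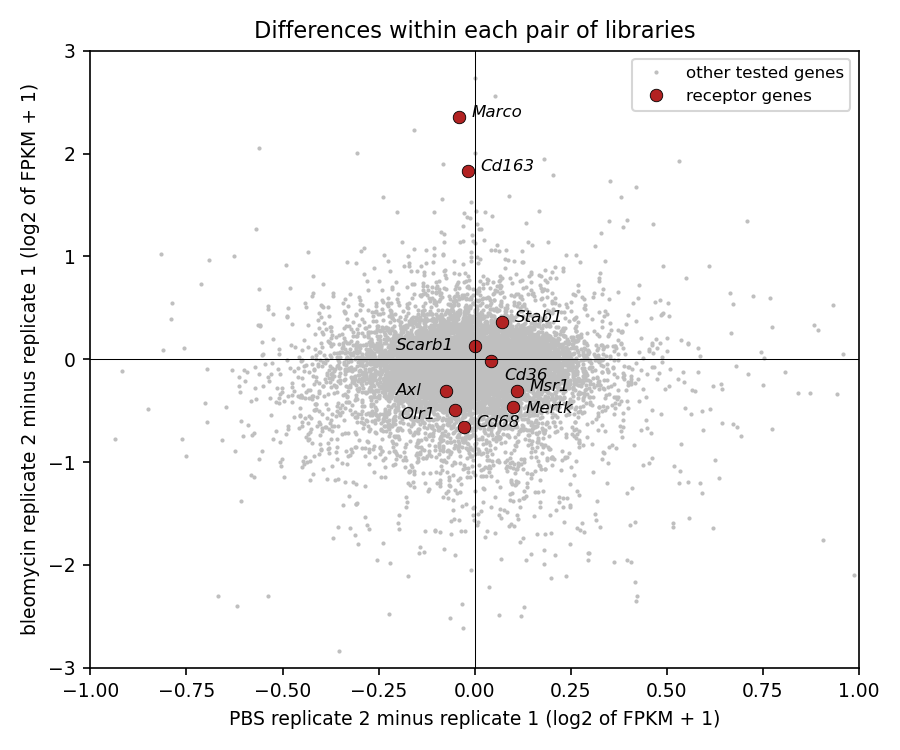
Difference between replicates 2 and 1 on the log2(FPKM + 1) scale, for the PBS pair on the x axis and the bleomycin pair on the y axis, with receptor genes in red and the other tested genes in grey. Marco and Cd163 lie highest among the receptor genes, at 2.36 and 1.83, and every receptor gene lies close to 0 on the PBS axis; 15 genes lie outside the axes.

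Macrophage markers moved in the same libraries. Over all tested genes 8.59% were called higher and 7.69% lower, shares to be read beside each marker list below. Of 10 general macrophage markers 5 rose (Adgre1, Fcgr1, Fcer1g, Tyrobp and Mpeg1), 0 fell and 5 did not pass. They summed to 6523 and 2453 FPKM with bleomycin and 2804 and 3414 FPKM with PBS, and so overlapped between the groups. The highest of them was Lyz2, which type II cells also express. Lyz2 stood at 4992 and 1608 FPKM with bleomycin and 2304 and 2892 FPKM with PBS. Without it the sums were 1531 and 845 FPKM with bleomycin and 499.8 and 522 FPKM with PBS, higher in replicate 1 as Cd68 and Msr1 were. The protease gene Ctss was at 681 and 263 FPKM with bleomycin and 114 and 124 FPKM with PBS, and did not pass (adjusted p = 0.0588 by limma). Tyrobp, the adaptor of many myeloid receptors, rose by the same test, with 269 and 187 FPKM with bleomycin and 108 and 119 FPKM with PBS. Csf1r, which encodes the receptor for the macrophage growth factor and was chosen after its values were seen, was at 47.8 and 32.6 FPKM with bleomycin and 42 and 47.1 FPKM with PBS.

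The lists of macrophage subsets are given beside 8.59% higher and 7.69% lower over all tested genes, and differences between lists were not tested. Of 13 markers of monocytes and recruited macrophages 7 rose and 0 fell, and they summed to 2255 and 2511 FPKM with bleomycin and 958 and 1115 FPKM with PBS. Without Chil3 the sums were 1939 and 1461 FPKM with bleomycin, higher in replicate 1, and 651 and 723 FPKM with PBS. The 3 highest were Spp1, Chil3 and Cd9, of which Chil3 and Cd9 did not pass. Spp1, osteopontin, rose to 856 and 443 FPKM with bleomycin, against 50 and 57.6 FPKM with PBS, and Cd9 was at 305 and 342 FPKM with bleomycin and 299.9 and 341 FPKM with PBS. Of 12 alveolar macrophage markers 2 rose (Slc39a2 and Atp6v0d2), 5 fell (Ear1, Fabp1, Car4, Krt79 and Cidec) and 5 did not pass. Of these, Car4 also marks endothelium, Fabp1 hepatocytes and Cidec adipocytes. The 12 markers summed to 708 and 1311 FPKM with bleomycin and 707 and 813 FPKM with PBS. Without Chil3, the highest of them, the sums were 392 and 261 FPKM with bleomycin and 401 and 421 FPKM with PBS. Chil3, a chitinase-like protein on both lists, was at 316 and 1050 FPKM with bleomycin and 307 and 392 FPKM with PBS, higher in replicate 2 as Marco and Cd163 were. Ear2 stood at 120 and 78.1 FPKM with bleomycin and 95.6 and 105 FPKM with PBS, and Car4 fell to 93.8 and 72.5 FPKM with bleomycin, against 150 and 163 FPKM with PBS.

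Of 11 tested interstitial macrophage markers 5 rose (C1qa, C1qb, C1qc, Folr2 and Mrc1), 1 fell (Cbr2) and 5 did not pass. They summed to 2026 and 1407 FPKM with bleomycin and 5367 and 4680 FPKM with PBS. Cbr2, a carbonyl reductase also abundant in airway cells, stood at 1156 and 540 FPKM with bleomycin and 4947 and 4123 FPKM with PBS. It made up most of the sum with PBS and in bleomycin replicate 1, but not in bleomycin replicate 2. Without it the list summed to 869.97 and 867 FPKM with bleomycin and 420 and 557 FPKM with PBS. C1qa rose to 285 and 156 FPKM with bleomycin, against 64.2 and 66.6 FPKM with PBS. Lyve1, shared with lymphatic endothelium, was at 98.8 and 378 FPKM with bleomycin and 207 and 300.1 FPKM with PBS. Of 10 fibroblast markers, relevant to Axl, 4 rose (Col1a1, Col1a2, Lum and Cthrc1) and 4 fell (Dcn, Tcf21, Npnt and Inmt). They summed to 1326 and 1333 FPKM with bleomycin and 3129 and 3712 FPKM with PBS. Inmt made up most of the PBS sums only, at 314 and 168 FPKM with bleomycin and 2328 and 2936 FPKM with PBS. Without it the sums were 1012 and 1165 FPKM with bleomycin and 801 and 776 FPKM with PBS. Of 8 further marker lists, neutrophil (0 higher, 4 lower of 7), airway (0 and 3 of 5), erythroid (0 and 4 of 4) and alveolar type I markers (0 and 2 of 6) had falls only. Lymphatic endothelium (2 and 0 of 5) and smooth muscle (2 and 0 of 7) had rises only, and lymphocyte markers (0 and 0 of 8) had neither. Adipocyte markers had 1 fall among 2 tested, that of Cidec, which is also on the alveolar macrophage list. No marker of any list was at 0 in both libraries of a group. The part of any of these cells in the receptor levels was not tested.

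Genes that work beside the receptors were read from 8 lists, chosen like the members with earlier results of these data known. Over their union, apart from the 10 members, limma called 28 of 125 higher (22.4%), 2 lower (1.6%) and left 95 that did not pass, beside 8.59% and 7.69% of all tested genes. The plot of called genes by list gives each list's share, and differences between lists were not tested. The share of rises ranged from 2 of 24 for engulfment machinery to 9 of 18 for bridging molecules and opsonins.

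Among 14 tested receptors of efferocytosis other than the members, 4 rose and 0 fell. Trem2, a lipid-sensing receptor of macrophages, rose to 46.9 and 32.9 FPKM with bleomycin, against 3.32 and 4.47 FPKM with PBS, a log2 change of 3.05 ± 0.21 (adjusted p = 0.00616 by limma). The integrin subunit gene Itgam rose to 9.9 and 8.19 FPKM with bleomycin, against 4.34 and 3.66 FPKM with PBS, and Itgav rose by 0.83 ± 0.11 on the log2 scale. Cd300lf, a phosphatidylserine receptor of myeloid cells, rose by 0.98 ± 0.16. Of the 18 other scavenger and endocytic receptors tested 2 rose and 0 fell. They were Cxcl16, a membrane chemokine that binds oxidized lipoprotein (66.3 ± 4.35 FPKM with bleomycin and 35.2 ± 1.39 FPKM with PBS), and Mrc1, the mannose receptor (25.7 ± 0.99 FPKM with bleomycin and 14.4 ± 0.339 FPKM with PBS). Clec7a, the receptor for fungal glucans, chosen after its values were seen, stood at 82.8 and 28.3 FPKM with bleomycin and 17.3 and 18.8 FPKM with PBS and did not pass (adjusted p = 0.127 by limma).

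Of 18 tested bridging molecules and opsonins 9 rose, 1 fell and 8 did not pass. Thbs1, thrombospondin-1, which binds Cd36, had the largest change among them on the log2(FPKM + 1) scale. It stood at 165 and 164 FPKM with bleomycin and 27.4 and 22.9 FPKM with PBS, a log2 change of 2.67 ± 0.11 (adjusted p = 0.00358 by limma). The complement genes C1qb and C1qc, whose products coat dying cells, rose by 1.90 ± 0.29 and 1.87 ± 0.22 on the log2 scale. The 3 C1q genes and Mrc1 also stand on the interstitial macrophage list, and Trem2 on that of recruited macrophages. Rises of such shared genes were counted on each list. Ptx3, a pentraxin, rose by 1.68 ± 0.16 on the log2(FPKM + 1) scale. It stood at 3.66 and 2.91 FPKM with bleomycin and 0.38 and 0.29 FPKM with PBS. A pseudocount of 1 is large beside its PBS level, and its fold between means was 9.81, above the 6.54 of Thbs1. Ptx3 passed the filter through its bleomycin values alone, so the counts that include it describe these genes and support nothing further. The fall was that of Mbl1, a mannose-binding lectin made in liver, at 1.47 and 0.61 FPKM with bleomycin and 3.32 and 3.46 FPKM with PBS.

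Of 16 genes of exposure, attraction and restraint signals 2 rose and 0 fell. P2ry2, a receptor for nucleotides released by dying cells, stood at 11.5 FPKM in both bleomycin libraries and at 4.93 and 4.69 FPKM with PBS. Panx1, a channel that lets nucleotides out, rose by 0.67 ± 0.13 on the log2 scale. Of 24 engulfment and digestion genes 2 rose and 0 fell, a share near that of all tested genes. They were Dnase2a, the lysosomal DNase (0.81 ± 0.10), and Slc2a1, a glucose transporter (0.50 ± 0.10). Of 5 genes of receptor shedding 2 rose, the metalloproteinase gene Adam10 (0.54 ± 0.09) and Rhbdf2, a partner of Adam17 (0.57 ± 0.08).

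Among 14 transcription factor genes 3 rose and 0 fell. Among them were Bhlhe40, at 44.6 and 45.9 FPKM with bleomycin and 25.5 and 26.1 FPKM with PBS, and Ppard, a lipid-sensing nuclear receptor, which rose by 0.40 ± 0.08 on the log2 scale. Of 17 genes that handle the ligands taken up 4 rose and 1 fell. Lpl, lipoprotein lipase, stood at 96.4 and 102 FPKM with bleomycin and 37.7 and 43.9 FPKM with PBS. Npc2, which moves cholesterol out of lysosomes, and Lipa, the lysosomal lipase, rose by 0.90 ± 0.12 and 0.79 ± 0.08 on the log2 scale. Blvra, biliverdin reductase, rose by 0.35 ± 0.08 and was close to the threshold (adjusted p = 0.0499 by limma). Hpx, hemopexin, which binds free haem and is made in liver, fell to 5.65 and 4.78 FPKM with bleomycin, against 42.5 and 46.7 FPKM with PBS, and the hepatocyte markers were lower in the same libraries.

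**Figure D5:**
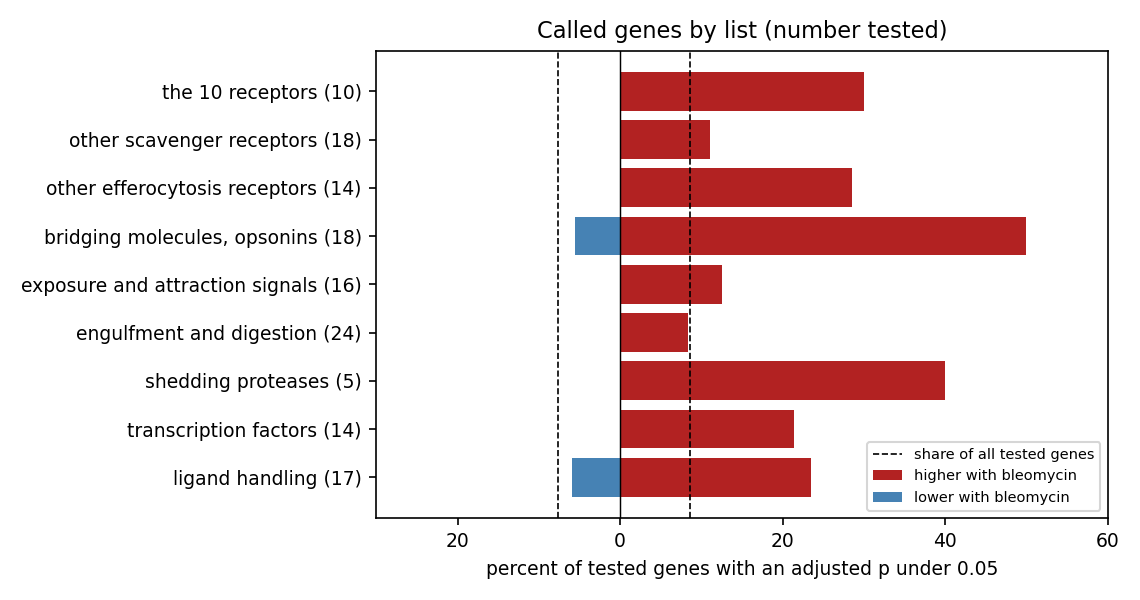
Percent of the tested genes of each list with an adjusted p under 0.05, higher with bleomycin to the right in red and lower to the left in blue, with the number tested in brackets. Dashed lines mark the shares over all tested genes, 8.59% higher and 7.69% lower. Bridging molecules and opsonins reach farthest to the right, with 9 of 18.

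With a PBS library left out, the spread comes from the bleomycin pair alone, and the lone PBS library is assumed to vary like it. Without PBS replicate 1 and without PBS replicate 2 the log2 change was 2.48 and 2.59 for Msr1. It was 1.51 and 1.49 for Cd68, and 1.04 in both fits for Scarb1. Without PBS replicate 1 or without PBS replicate 2 limma called 0 of 12986 genes and so 0 members. The unadjusted p was under 0.05 for 1120 higher and 1007 lower genes without replicate 1, and for 1143 and 1059 without replicate 2. With a bleomycin library left out, the lone bleomycin library is assumed to vary like the PBS pair, the closer of the pairs, so those calls compare 1 library with that pair. Without bleomycin replicate 1 it called 8 members higher and 2 lower, where 18% and 24.2% of all tested genes were called, and without bleomycin replicate 2 it called 6 and 3, where 18.5% and 15% were. Values rescaled to TPM called 5 members higher and 0 lower, beside 11.1% and 6.83% of all. Quantile normalization called 5 and 2, beside 9.29% and 9.04%. Above and below PBS without overlap were 6 and 2 members, beside 31.5% and 35% of all tested genes.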

How the data were processed

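The deposited values are FPKM, per the file headers. The submitters' processing notes name HISAT, Bowtie2, GRCm38 and mm10; which tool did what, and how FPKM were computed, is not given in the sources used here. Of 17692 rows, 1 lacked a name and was dropped (at most 0.0009% of any library), and 27 gene names that a spreadsheet had made into dates were recovered from the RefSeq accessions. Because FPKM are no counts, log2(FPKM + 1) was tested with limma 3.58.1 in R 4.3.3 (eBayes with trend, 2.76 prior and 2 residual degrees of freedom) on 12986 genes averaging 1 FPKM or more. Depth came from genes with 1 transcript of 300 to 1000 bases, at which 75% to 78.1% of values between 0.03 and 0.3 FPKM lay within 0.15 of a whole fragment, against a median of 18.8% to 21.5% over other depths tried. Members, lists and tests were chosen with earlier results of these data known. Beside all members, the text names up to 4 called genes of each pathway list with the largest change, the highest genes of 6 marker lists, Tyro3, Gas6, Pros1, and genes marked as chosen later or given to spell out a small count. Of 286 list entries 284 are in the table. The values of 1 called gene of the transcription factor list are not reported here. The limma functions were tested on simulated data. Alternatives were 2 pseudocounts, 2 filters, 3 scalings, 2 eBayes settings, leaving out each library, and a replicate block. Python 3.11.15, numpy 2.4.6, pandas 2.3.3, scipy 1.17.1 and matplotlib 3.10.9 were used.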

Additional observations from a re-analysis of the deposited data

How the results depend on the processing

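Over 100 results for the 10 members under alternatives other than leaving out a library, 93 kept their direction and their side of the threshold, 7 newly passed and 0 reversed. The 7 were Olr1 (log2 change 0.84), Axl (0.61) with values rescaled to TPM, Axl (0.55) with upper quartile scaling, and Cd36 (-0.40), Olr1 (0.73), Mertk (-0.64) and Axl (0.51) with quantile normalization. Members called higher numbered 5 with TPM, and 5 higher and 2 lower with quantile normalization. Pathway genes called lower numbered 1 with a pseudocount of 0.1, 1 with a filter at 5 FPKM and 4 with quantile normalization, and cell type marker genes called higher numbered 28, or 13 with no filter.

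Leaving out 1 library at a time moved the log2 change of Msr1 between 2.39 and 2.69, Marco 0.83 and 3.19, Cd36 -0.37 and -0.33, Olr1 0.46 and 0.96, Scarb1 0.98 and 1.11, Cd68 1.17 and 1.83, Cd163 -0.54 and 1.29, Stab1 -0.10 and 0.26, Mertk -0.89 and -0.43, and Axl 0.38 and 0.69. The ranges of called genes were 0 to 2402 higher and 0 to 3144 lower over all genes, 0 to 8 and 0 to 3 over the members, 0 to 59 and 0 to 22 over the pathway genes and 0 to 45 and 0 to 53 over the marker genes. The counts of 0 came without a PBS library, when 1 residual degree of freedom is left, from the bleomycin pair, and the lone PBS library is assumed to vary like that pair. Among the log2 ratio differences, Msr1 to Marco ranged from -0.11 to 2.68, Cd163 to Cd68 from -2.58 to 0.30 and Stab1 to Cd163 from -1.23 to 0.62, and the other 3 kept their sign.

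Of 693 results for other named genes under settings other than leaving out a library, 29 lost their call. With no filter 19 did, at adjusted p between 0.05035 and 0.0773: Cd300lf, Panx1, Slc2a1, Ppard, Tyrobp, Cbr2, C1qa, Plvap, Adgre1, Mbl1, Blvra, Fcgr1, Fcer1g, Slc39a2, Atp6v0d2, Fabp1, Folr2, Kdr and Lum. The replicate block lost 5 (Slc2a1, Ppard, Plvap, Blvra and Folr2), a pseudocount of 0.1 lost 3 (Mbl1, Blvra and Fabp1), and a pseudocount of 0.5 and eBayes without trend lost Blvra. Other named genes that turned sign did not pass in the fit over all 4 libraries. They were Lyz2 (-0.047 with quantile normalization, -0.68 to 0.95 leaving out a library), Ear2 (0.013 with TPM, -0.36 to 0.25), Tyro3 (0.047 with TPM, 0.000491 with upper quartile scaling, -0.19 to 0.16), Chil3 (-0.14 to 1.60), Lyve1 (-1.33 to 0.60), Cd9 (-0.081 to 0.11) and Csf1r (-0.43 to 0.10). The causes were not tested.

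The replicate numbers are shared by the groups, but nothing ties them to shared animals or days, and deviations of same-numbered libraries correlated at 0.023 across genes. A fit with a replicate block called 842 genes higher and 799 lower, against 1116 and 998 without it, and changed no member's call. Depth limits Msr1 in the PBS libraries, which rests on few fragments.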

Other observations

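The genes with the largest gaps between the bleomycin libraries were listed after the values were seen. By the log2(FPKM + 1) difference, Marco ranked 5 and Cd163 ranked 14 among the 12986 tested genes for being higher in bleomycin replicate 2. The genes below were picked from that ranking by hand and stand for no group. Macrophage markers differed in direction. C1qa, at 285 and 156 FPKM with bleomycin, was higher in replicate 1. So were the general markers without Lyz2, which summed to 1531 and 845 FPKM with bleomycin. Lyve1 and F13a1, on the interstitial macrophage list like C1qa, were higher in replicate 2, Lyve1 at 98.8 and 378 FPKM with bleomycin. Chil3 was too, at 316 and 1050 FPKM with bleomycin. Without Cbr2 the interstitial list summed to 869.97 and 867 FPKM with bleomycin. Vsig4, a complement receptor of resident macrophages, was at 0.19 and 6.91 FPKM with bleomycin and 0.08 FPKM in both PBS libraries. F13a1, coagulation factor XIII A chain, was at 4.3 and 17.3 FPKM with bleomycin and 3.64 and 4.35 FPKM with PBS. Fcna, a ficolin, was at 1.66 and 7.49 FPKM with bleomycin and 0.48 and 0.98 FPKM with PBS. Ear6, an eosinophil-associated ribonuclease, was at 0.86 and 6.47 FPKM with bleomycin and 0.4 FPKM in both PBS libraries.

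Genes of other cells were in the same ranking. Msln, a mesothelial marker, was at 60.9 and 257 FPKM with bleomycin and 84.5 and 57 FPKM with PBS, and the other 3 mesothelium markers summed to 24.3 and 37.7 FPKM with bleomycin and 72.8 and 48.1 FPKM with PBS. The matrix genes Eln, at 1243 and 4990 FPKM with bleomycin and 128 and 103 FPKM with PBS, and Lox, at 46.3 and 181 FPKM with bleomycin and 16.3 and 18.7 FPKM with PBS, were also higher in replicate 2. Among genes higher in bleomycin replicate 1 were the macrophage elastase gene Mmp12, at 78.3 and 13.9 FPKM with bleomycin and 1.38 and 1.6 FPKM with PBS, and the B cell gene Cd79a, at 16.4 and 2.34 FPKM with bleomycin and 13.3 and 12.9 FPKM with PBS.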
